A study of Mus musculus with 4 samples.

Results

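The comparison described here is DNMT1 knockdown against control in uninduced C3H10T1/2 cells, measured as the methylation level of annotated genomic regions. Every region with a level in both uninduced libraries was taken, which gave 156128 of the 164078 regions listed in any of the 4 libraries, and 151644 of these had a level in all 4. The difference for a region is the siDNMT1 level minus the NC level, both fractions between 0 and 1. Promoters were left mostly aside, and the weight was put on CpG islands, the shores that flank them, introns, untranslated regions (UTRs) and repeats, and on genes of which several region classes moved together.

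C3H10T1/2 is a mouse mesenchymal stem cell line. The NC library came from cells given a control siRNA for 48 h, the siDNMT1 library from cells given an siRNA against DNMT1 for 48 h, and both were left uninduced. A second pair carried the same transfections followed by 3 days of osteoblast (OB) induction with ascorbic acid, β-glycerophosphate and dexamethasone, and is used below only as a second, separate pair of libraries. DNA was bisulfite-treated and sequenced in a protocol named reduced representation bisulfite sequencing, although the labels' protocol describes sonicated fragments. All 4 conditions came from 1 line and 1 library each, so no difference below has a replicate check and no p-value is given. The number of reads behind a level is unknown, so single levels carry no interval. Methylation levels do not show how much DNMT1 was left after the siRNA.

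DNMT1 is the maintenance methyltransferase, which restores methylation at CG sites that cell division leaves methylated on 1 strand, so that a loss of the enzyme is expected to dilute methylation with cell division. CpG islands are short stretches dense in CG that are mostly unmethylated where they lie at gene starts, whereas gene bodies and repeats are usually methylated. Shores are the flanking stretches around islands, where methylation passes from low to high.

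The islands that moved most show how dense these regions are in the dinucleotide that was measured. The following stretches of 30 bases are the CG-richest of each island outside annotated exons, on the plus strand of GRCm38, with CG in capitals. They were chosen because the results below turn on these islands. Syne1, Gnas and Irx5 stand for islands that were lower after siDNMT1 (chr10:5550343-5550372, chr2:174297503-174297532 and chr8:92365567-92365596). Uxt, Bex1 and Cdk16 stand for islands that were higher (chrX:20962042-20962071, chrX:136215294-136215323 and chrX:20688388-20688417), and Fam90a1b with Apoo and Smarca1 for islands that were higher together with a shore (chrX:94366943-94366972 and chrX:47892002-47892031).
Syne1: cctctccctgtggttCGCGgCGCGtcagCG
Gnas: tatttaCGattttCGagaCGaatCGgcaCG
Irx5: CGctCGccCGgcagCGctgctttctgaCGc
Uxt: aaccaaatCGatgggaggggCGgtcCGgCG
Bex1: ccCGaCGaCGggctcCGCGggtcCGgtcCG
Cdk16: ccccacccccagCGtgtgCGtgCGcatgCG
Fam90a1b and Apoo: cCGCGCGCGcctctCGgttgctaagcaaCG
Smarca1: CGgcCGCGccccCGccctgcccCGccccCG

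To ask in which parts of the genome methylation moved, regions were counted by class, and a region is said below to have fallen or risen when its level changed by at least 0.1. CpG islands hardly moved. Of 14186 islands, 42 fell (0.296%) and 41 rose (0.289%), and the median difference was 0.000471. Shores moved more often but evenly, with 200 of 16869 fallen (1.19%) and 223 risen (1.32%), so that 47.3% of the changed shores had fallen (95% Wilson interval 42.6% to 52.0%). The 5′ UTRs were also even, with 99 of 11672 fallen (0.848%) and 106 risen (0.908%).

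Introns, exons, 3′ UTRs and repeats leaned to loss. Among 20009 introns, 190 fell (0.95%) against 144 with a rise (0.72%), a fallen share of 56.9% (interval 51.5% to 62.1%). Of 4488 3′ UTRs, 89 fell (1.98%) and 66 rose (1.47%), a share of 57.4% with an interval of 49.5% to 64.9% that includes an even split. Repeats held most of the changes, 2248 fallen (4.71%) and 1956 risen (4.1%) of 47712 entries, a share of 53.5% (52.0% to 55.0%). Of 20700 exons, 233 fell (1.13%) and 180 rose (0.87%), a share of 56.4% (51.6% to 61.1%). Over all classes 2.12% of regions fell and 1.86% rose, with 1.04% and 0.898% in promoters. These intervals treat regions as independent and cover neither library error nor reads. The lean of introns was lost at a larger threshold: among introns that moved by at least 0.2, the fallen share was 49.4%. Among exons it was 52.3% at that threshold.

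The median over all regions of a class was also below 0 in introns, 3′ UTRs and repeats. The median difference was -0.00435 in introns (95% interval of the median -0.00462 to -0.00406), -0.00721 in 3′ UTRs (-0.00793 to -0.00650) and -0.00516 in repeats (-0.00550 to -0.00480). It was -0.00221 in shores, -0.00186 in exons and -0.000715 in promoters, and it was positive in islands and in 5′ UTRs (0.000619). The level was lower after siDNMT1 in 61.8% of introns, 63.9% of 3′ UTRs and 57.0% of repeats, but in only 46.2% of islands. The shifts were thus in the third decimal place of the methylation fraction.

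**Figure D1:**
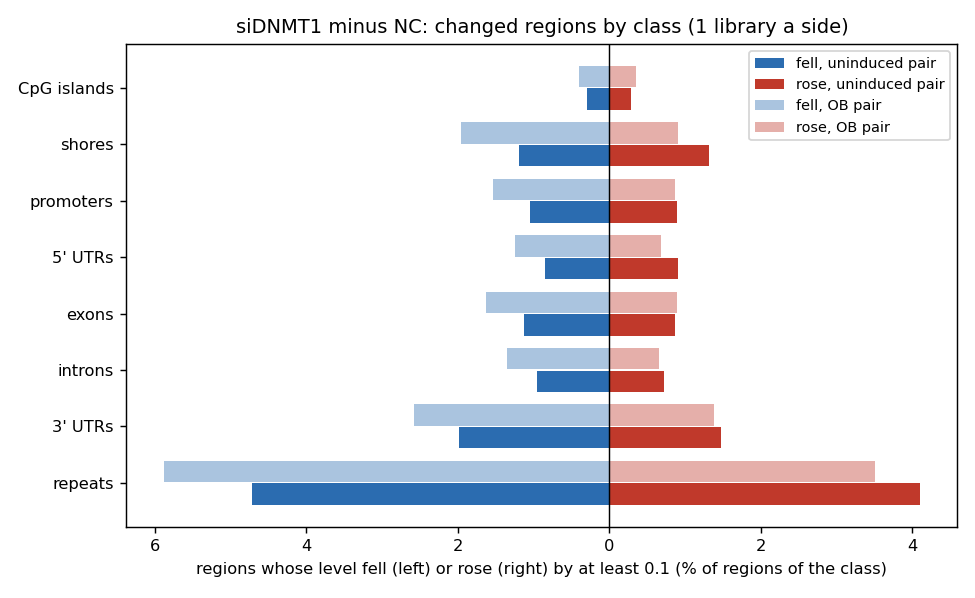
Share of regions (%) whose methylation level fell (bars to the left) or rose (bars to the right) by at least 0.1, siDNMT1 minus NC, for 8 region classes in the uninduced pair (dark bars) and the OB pair (pale bars), 1 library a side. Islands changed least in both pairs and repeats most, with 4.71% fallen and 4.1% risen in the uninduced pair.

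Within each class the difference went with the level of methylation. Regions were binned by their mean level in the 2 OB libraries, which do not enter the uninduced difference. In islands below 0.05 the median difference was 0.000948 (n = 7998), and in islands at or above 0.8 it was -0.00724 (n = 744), where 80.6% of islands were lower after siDNMT1. Shores went from 0.000878 (n = 4103) to -0.00856 (n = 695) between the same bins, introns from 0.000816 (n = 2696) to -0.00992 (n = 382), and repeats from 0.000134 (n = 1044) to -0.0110 (n = 3200). In each of the 8 classes the median was above 0 in the lowest bin and below 0 in the highest. Between 0.6 and 0.8 the medians were -0.00657 in islands, -0.00833 in shores, -0.00767 in introns, -0.00936 in 3′ UTRs and -0.00856 in repeats. Between 0.4 and 0.6 the classes lay further apart at a like level, with -0.000209 in islands (-0.00216 to 0.00114) and -0.00122 in 5′ UTRs, against -0.00628 in introns (-0.00691 to -0.00575) and -0.00668 in shores. Islands and 5′ UTRs differed from the others in how many of their members lay in the lowest bin, 7998 of 14095 islands and 7030 of 11491 5′ UTRs with a level in all 4 libraries, against 2696 of 19757 introns.

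**Figure D2:**
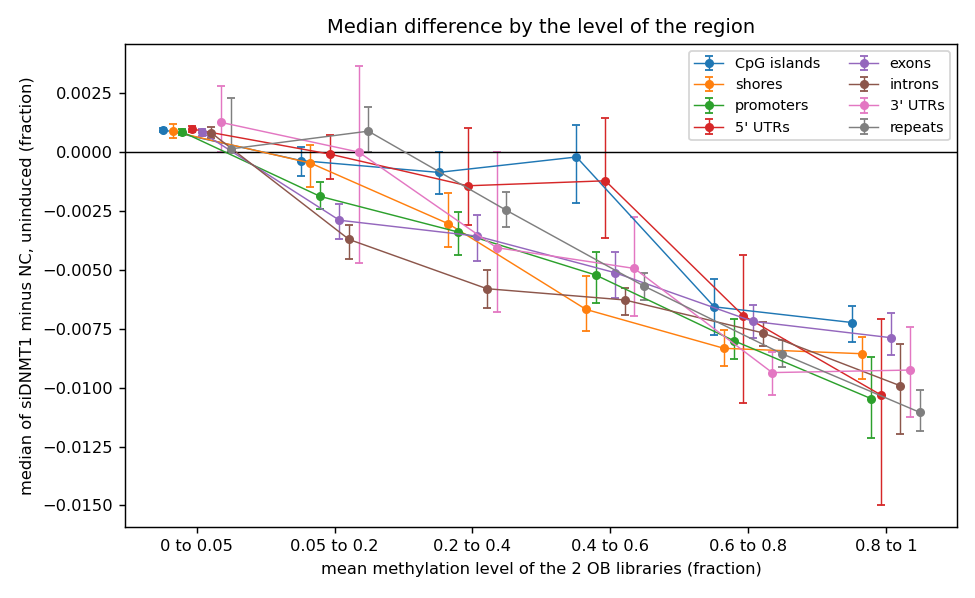
Median difference in methylation fraction (siDNMT1 minus NC, uninduced) against the mean level of the region in the 2 OB libraries, by region class, with 95% intervals of the median. All 8 classes lie above 0 in the lowest bin and below 0 in the highest, islands at 0.000948 and -0.00724.

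The OB pair shares no library with the uninduced pair, so it was asked whether the same regions moved in both. Falls were more frequent than rises in the OB pair, at 1.95% against 0.913% of shores, 1.35% against 0.658% of introns, 2.58% against 1.38% of 3′ UTRs and 5.87% against 3.51% of repeats. The same held for promoters (1.54% and 0.865%), exons (1.62% and 0.895%) and 5′ UTRs (1.24% and 0.69%), while islands were again nearly even (0.396% and 0.361%). Over all classes of the OB pair 2.78% of regions fell and 1.6% rose. In the medians the OB pair showed larger differences, -0.0131 in introns, -0.0200 in 3′ UTRs, -0.0157 in repeats and -0.00817 in shores. Of the 144 shores that had fallen and were listed in all 4 libraries, 46.5% were lower in the OB pair, whereas 66.7% of all shores were. Of the 154 introns that had fallen, 61.7% were lower in the OB pair, against 74.4% of all introns, and for the 1583 repeats that had fallen the shares were 55.5% and 68.4%. Regions that had risen were higher in the OB pair more often than their class, 59.4% against 41.4% in islands, 41.2% against 32.8% in shores, 36.4% against 25.4% in introns, 41.7% against 21.2% in 3′ UTRs and 44.3% against 30.7% in repeats. Fallen regions were also higher there more often than their class, at 55.6% in islands, 50.7% in shores and 37.0% in introns. The share was 45.7% in 3′ UTRs and 41.2% in repeats, so a higher level there was not particular to risen regions. In all 8 classes fallen regions were thus less often lower, and risen regions more often higher, in the OB pair than their class as a whole.

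Changed regions also moved by at least 0.1 more often in both directions. Of the introns that had fallen uninduced, 13% fell and 9.09% rose by at least 0.1 in the OB pair, where 1.31% and 0.567% of all introns did. Of the 32 islands that had risen, 9.38% fell and 25% rose, against 0.355% and 0.326% of all islands. Across regions the differences of the 2 pairs had Pearson correlations between -0.0171 in 5′ UTRs (n = 11491) and 0.0714 in promoters (n = 20152), given as a description, since regions of a library share its depth and base composition.

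The changed islands were shorter at the median than islands as a whole. Counted on GRCm38, the 83 changed islands (0.585%) had a median of 33 CG dinucleotides over 336 bases, against 62 over 604 bases for all islands. Ordered by CG number into 4 bins, the share that changed went from 1.43% of the islands with the fewest CG (14 to 38) to 0.0570% of those with the most. In shores it went from 3.91% to 1.19% over 4 such bins, and in repeats, binned by the length of the element they cover, from 10.7% in the shortest bin to 6.39% in the longest. Changed islands also differed in level. The median NC level was 0.475 in islands that fell and 0.32 in those that rose, against 0.0326 in all islands. Of all 14186 islands, 7810 had an NC level below 0.05, from which a fall of 0.1 is not possible. The bins were not matched for level. Regions with fewer CG allow fewer measured cytosines per level, and the part of this in the changes was not tested.

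By place, 8864 islands lay over a gene start, of which 18 fell and 12 rose with a median difference of 0.000743. Islands inside genes (4604) had 22 fallen, 21 risen and a median of -0.000536, and of 714 islands between genes 2 fell and 8 rose. The median NC level was 0.0212 at gene starts and 0.227 inside genes, so these places again differed in level.

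Among single islands of at least 200 bases, the 5 that fell most lay over the starts of genes or inside them. The largest fall was in an island at the start of AC147989.3 (chr18:35498630-35498921), with levels of 0.40 in NC, 0.0632 in siDNMT1, 0.114 in NC OB and 0 in siDNMT1 OB. Of the 4 of these islands with an OB difference, it was the only one that fell there too. An island inside Syne1, which encodes a nesprin of the nuclear envelope, had 0.70 in NC and 0.375 in siDNMT1, and 0.733 in siDNMT1 OB, with no level in NC OB. The island in the imprinted Gnas locus, which encodes the stimulatory G protein α-subunit, had 0.484 in NC, 0.252 in siDNMT1, 0.447 in NC OB and 0.463 in siDNMT1 OB. The siDNMT1 library thus stood alone at Gnas, below the other 3 libraries, which lay close to one another. Gm15411 (0.708 in NC, 0.40 in siDNMT1 and 0.600 in both OB libraries) and Irx5, an Iroquois homeobox gene (1.00 in NC, 0.800 in siDNMT1, 0.667 in NC OB and 0.722 in siDNMT1 OB), completed the set.

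Of the 5 islands that rose most, 3 were on the X chromosome. Among all changed islands the X share was 23.8% of the 42 that fell and 19.5% of the 41 that rose, against 2.62% of all islands. The island shared by the starts of Uxt, a prefoldin-like protein, and A230072C01Rik (chrX:20961594-20962204) had 0.0625 in NC, 0.433 in siDNMT1, 0.374 in NC OB and 0.518 in siDNMT1 OB. The island at Bex1 (chrX:136215032-136215549) had 0.491 in NC, 0.824 in siDNMT1, 0.645 in NC OB and 0.764 in siDNMT1 OB. Both were also higher by at least 0.1 in the OB pair, and in both the NC library was the lowest of the 4. Choosing islands that rose favours a low NC level: NC was the lowest in 19 of the 32 risen islands listed in all 4 libraries. The island in Cdk16, a cyclin-dependent kinase (chrX:20688267-20688821), had 0.401 in NC, 0.683 in siDNMT1, 0.660 in NC OB and 0.612 in siDNMT1 OB, so that NC stood apart from 3 libraries that were alike. The island in Hk1, which encodes a hexokinase, went from 0.50 to 0.794 uninduced but from 0.70 to 0.40 in the OB pair. The island in Bdnf, a neurotrophin gene, had 0.339 in NC, 0.618 in siDNMT1, 0.467 in NC OB and 0.50 in siDNMT1 OB.

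Islands and their shores rarely moved as a unit. Of 10982 islands with a listed shore that abuts them, 3 fell together with a shore (0.0273%), 3 rose together with one (0.0273%) and 2 moved opposite to it. Over all 15346 pairs of an island and an abutting shore, the differences had the same sign in 50.9%. The units that fell were at Tspyl2, a nucleosome assembly family gene on the X chromosome, and at the predicted genes Gm10051 and Gm13284. At Tspyl2 the island had 0.250 in NC and 0.0833 in siDNMT1 and its shore 0.36 and 0.0857, with no level in either OB library. None of the 3 had a level for both parts in all 4 libraries.

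The 3 units that rose were all on the X chromosome. The island shared by Fam90a1b and Apoo, a mitochondrial apolipoprotein, had 0.264 in NC, 0.412 in siDNMT1 and 0.551 in NC OB, and its shore had 0.30, 0.558 and 0.615. The island in Smarca1, an ISWI chromatin remodelling ATPase, had 0.247 in NC, 0.384 in siDNMT1, 0.387 in NC OB and 0.40 in siDNMT1 OB, and its shore had 0, 0.40, 0.267 and 0.267. The island in Tbc1d25, a Rab GTPase-activating protein, had 0.354, 0.455, 0.442 and 0.379 in the same order. In all 3 units the NC library was the lowest of those listed, an order that choosing units that rose favours.

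To find genes of which several parts moved together, the promoter (2 kb upstream), 5′ UTR, exon, intron and 3′ UTR entries of each gene were compared. Of 15243 genes with at least 3 of these 5 classes listed, 3 had at least 3 classes fallen and none risen (0.0197%), and 11 had at least 3 risen and none fallen (0.0722%). With 2 classes, 56 of 20059 genes fell (0.279%) and 45 rose (0.224%), and 41 genes had classes changed in opposite directions. The classes can share cytosines, since UTRs lie in exons. Of 11666 genes with a 5′ UTR and an exon level, 1241 (10.6%) had the same difference in both. Of the 14 genes, 7 had such a pair of identical classes. The promoters of Chrdl1 and Fabp12 also had the levels of their 5′ UTR and exons, so promoter entries were not always separate measurements. Without exons 1 of the genes that fell (Sit1) and 2 of those that rose (Armcx2 and Fam90a1b) remained.

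Sit1, a signalling adaptor of lymphocytes (chr4:43482081-43483734), was the gene with the most parts lower. Its promoter had 0.626 in NC and 0.466 in siDNMT1, its 5′ UTR 0.538 and 0.397, its exons 0.723 and 0.596, and its intron 0.385 and 0.143. It had no level in siDNMT1 OB. Smpx, a small muscle protein on the X chromosome (chrX:157698910-157752591), fell in both pairs: its promoter had 0.468 in NC, 0.306 in siDNMT1, 0.438 in NC OB and 0.239 in siDNMT1 OB. Its 5′ UTR and exon levels were identical, at 0.406, 0.283, 0.375 and 0.247. The intron of Smpx had 0.565, 0.531, 0.487 and 0.304, a difference of -0.0339 in the uninduced pair and -0.183 in the OB pair. Both siDNMT1 libraries were therefore below both NC libraries in the Smpx promoter, exons and 5′ UTR, the only gene of the 3 with that pattern. Chrdl1, a chordin-like BMP antagonist on the X chromosome, had one value for its promoter, 5′ UTR and exons, 0.711 in NC, 0.559 in siDNMT1, 0.592 in NC OB and 0.720 in siDNMT1 OB, so the 2 pairs moved in opposite directions.

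Because 3 genes were few, 2 with a pair of fallen classes were added by size. Ppm1k, a mitochondrial phosphatase of branched-chain amino acid breakdown, had a promoter level of 0.510 in NC, 0.10 in siDNMT1, 0.465 in NC OB and 0.468 in siDNMT1 OB, and exon levels of 0.510, 0, 0.487 and 0.481. The siDNMT1 library alone was low there. The predicted gene Gm48077 had a promoter level of 0.875 in NC and 0.125 in siDNMT1, with no OB level for the promoter. Its exon had 0.624 in NC, 0.50 in siDNMT1, 0.491 in NC OB and 0.505 in siDNMT1 OB, so it did not fall in the OB pair.

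Of the 11 genes that rose, 7 were on the X chromosome, where 2.68% of the genes with at least 3 classes lay. Of the 3 genes that fell, 2 were X-linked, so the X share was high in both directions. Uxt (chrX:20941722-20962017) had a promoter level of 0.0547 in NC, 0.412 in siDNMT1, 0.371 in NC OB and 0.516 in siDNMT1 OB, and 5′ UTR levels of 0.125, 0.600, 0.396 and 0.491. Nkrf, an NF-κB repressing factor (chrX:36887540-36902899), had 5′ UTR and exon levels of 0.189, 0.291, 0.251 and 0.361 and intron levels of 0.314, 0.415, 0.384 and 0.491. Nkrf was the only gene of the 11 in which the same 3 classes rose by at least 0.1 in the OB pair, with differences of 0.110 in the 5′ UTR and exons and 0.107 in the intron. The Uxt promoter and exons also rose there, by 0.145 and 0.127. In Uxt and Nkrf the NC library had the lowest level of the 4 in every listed class. Choosing genes that rose favours a low NC level and a high siDNMT1 level.

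Armcx2, of the armadillo-repeat family on the X chromosome, showed another pattern. Its promoter had 0.442 in NC, 0.637 in siDNMT1, 0.371 in NC OB and 0.379 in siDNMT1 OB, and its intron had 0.421, 0.667, 0.370 and 0.259, so that the siDNMT1 library was the highest in both. The same was true of Pars2, a mitochondrial prolyl-tRNA synthetase on chromosome 4, whose promoter had 0.165, 0.375, 0.0370 and 0.0444, and of Dio1, a thyroid hormone deiodinase, whose 3′ UTR had 0.602, 0.721, 0.580 and 0.590. Cdk16 and Tmsb4x, which encodes the actin-binding thymosin β4, rose in their 5′ UTR, exon and intron but not their promoter, with promoter differences of 0.0159 and -0.0442. Psme3, a proteasome activator subunit, went from 0 in NC to 0.294 in its 5′ UTR, with 0.143 and 0.150 in the OB libraries. Fabp12, of the fatty acid binding protein family, went from 0.875 to 1.00 with a single set of values for 3 classes, which were at 0 in NC OB and had no level in siDNMT1 OB.

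**Figure D3:**
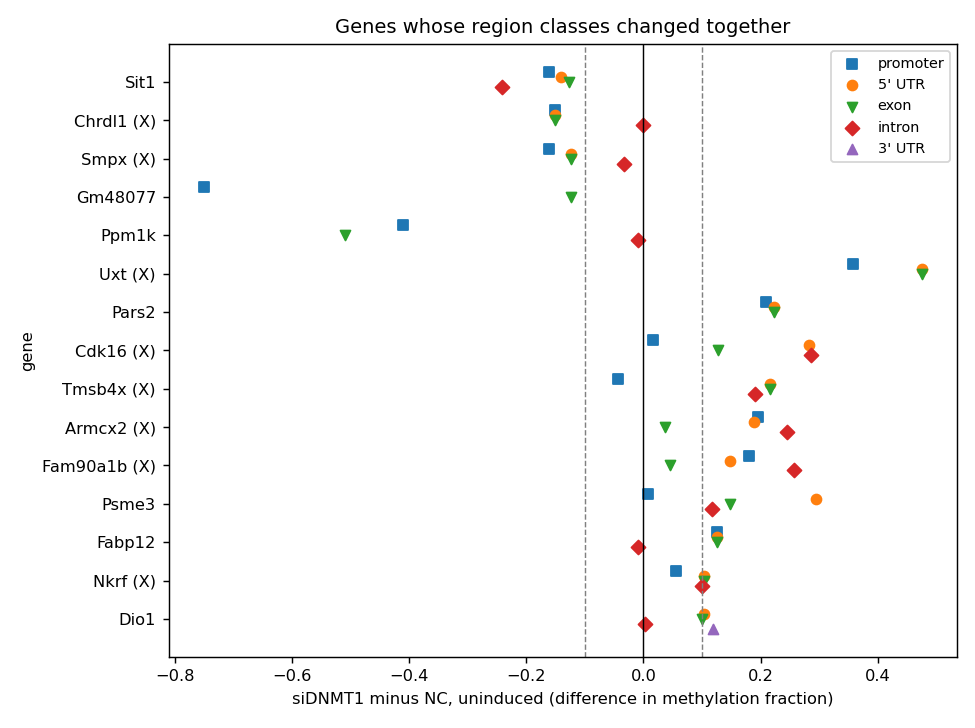
Difference in methylation fraction (siDNMT1 minus NC, uninduced) of each listed region class for 15 genes, of which 13 had at least 3 classes changed by 0.1 or more in one direction (dashed lines) and 2 had a pair. Of the 10 genes with higher levels drawn, 6 are on the X chromosome, marked (X), and identical markers within a gene share cytosines.

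At any size of difference, genes with all 5 classes listed moved down more often than up. Of 2938 such genes, 315 had all 5 classes lower (10.7%) and 84 had all 5 higher (2.86%). In the OB pair the counts were 635 lower (22%) and 30 higher (1.04%) of 2880. Between classes of a gene the differences had a Pearson correlation of 0.00593 between exon and intron (n = 15971) and -0.0444 between intron and 3′ UTR (n = 4091). The promoter had 0.155 with the intron (n = 14267) and 0.139 with the 5′ UTR (n = 10803), and the 5′ UTR had 0.358 with the exon (n = 11666), all given as a description across genes.

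The X chromosome was therefore compared with the autosomes over all its regions. In female mammalian cells islands of the silenced X chromosome are known to carry methylation, and the labels do not give the sex of the line. The median island level on the X chromosome was 0.369 in NC, 0.381 in siDNMT1, 0.396 in NC OB and 0.410 in siDNMT1 OB (n = 369), whereas on autosomes it was between 0.0260 and 0.0309 in the 4 libraries (n = 13719). Of 372 X islands, 216 were higher after siDNMT1 (58.1%), with a median difference of 0.00606 against 0.000453 on autosomes. The NC library was the lowest of the 4 in 159 of 369 X islands, and in 1966 of 14095 islands over all chromosomes. The larger set includes the X islands, is mostly autosomal and was not matched for level. On autosomes the medians of NC OB (0.0266) and siDNMT1 OB (0.0260) already lay below that of NC (0.0301).

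X-linked regions also changed more often in both directions. Of X islands 4.84% changed by at least 0.1 (10 fell and 8 rose), against 0.471% of autosomal islands. The 5′ UTRs behaved likewise, with 10.1% changed on the X chromosome (14 fell and 20 rose) and 1.49% on autosomes. Restricted to regions with a mean uninduced level of 0.2 to 0.7, the X and autosomal shares were 5.18% (16 of 309) and 1.55% in islands. They were 10.4% (30 of 289) and 4.74% in 5′ UTRs, and 7.58% (25 of 330) and 3.66% in shores. In introns they were 4.06% (22 of 542) and 1.86%, in promoters 6.99% and 3.40%, and in exons 7.34% and 2.93%. The gap was small in 3′ UTRs, at 6.06% (2 of 33) and 5.03%. The median difference of X introns was also higher than on autosomes, but below 0, with -0.00120 against -0.00440. It was higher on the X chromosome in shores, promoters and 5′ UTRs as well. In exons and 3′ UTRs it was lower there, with -0.00278 against -0.00184 and -0.00788 against -0.00720. Without the X chromosome the class shares above moved little, with 57.8% of changed autosomal introns fallen and 47.8% of changed autosomal shores.

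**Figure D4:**
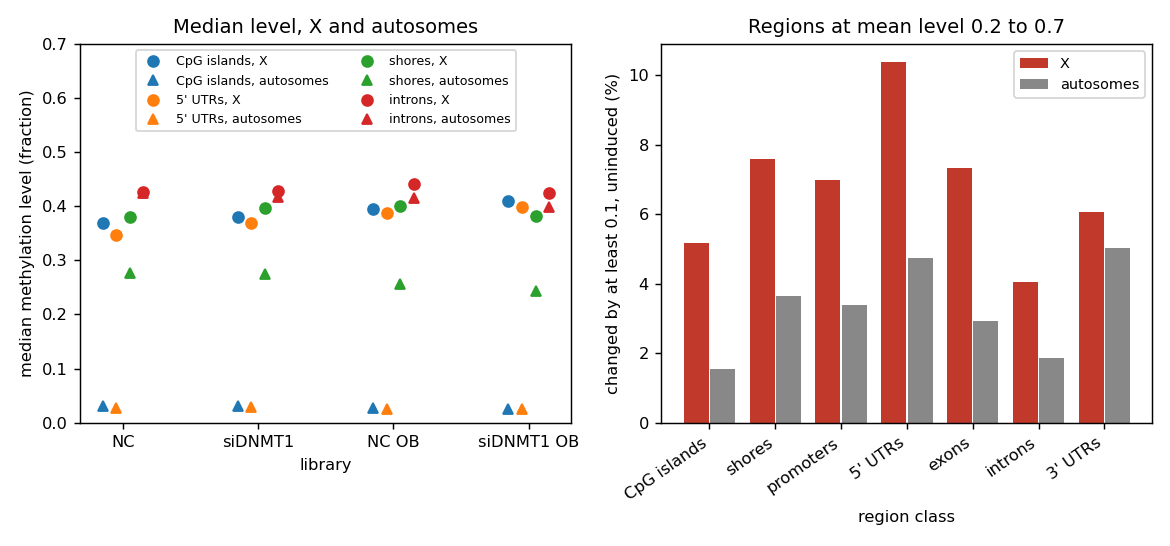
Left, median methylation level (fraction) of X-linked (circles) and autosomal (triangles) regions in the 4 libraries; right, share (%) of regions at a mean uninduced level of 0.2 to 0.7 with a difference of 0.1 or more in the uninduced pair. X islands lie at 0.369 to 0.410 in the 4 libraries and changed in 5.18% of cases, autosomal islands in 1.55%.

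Introns and UTRs of protein-coding genes were next examined where they had moved the same way by at least 0.05 in the OB pair, so the OB direction of the genes named here was fixed by that choice. Of 110 introns that had fallen, 32 did so (29.1%), where 7.87% of all such introns were lower by that much in the OB pair. Of 83 introns that had risen, 17 were higher (20.5%, against 1.79%). For 5′ UTRs the shares were 36.1% against 4.25% for falls and 29.9% against 2.54% for rises, and for 3′ UTRs 38.6% against 14.5% and 20.8% against 3.45%. As shown above, regions that moved uninduced were more often moved in the opposite direction as well.

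The introns with the largest shared falls were those of Fbxw18, Btbd1, Polr2h and Rhov. The Btbd1 intron, in a BTB-domain gene (chr7:81792074-81829431), had 0.356 in NC, 0.0360 in siDNMT1, 0.273 in NC OB and 0.0837 in siDNMT1 OB. The intron of Fbxw18, an F-box gene, had 0.625, 0.20, 0.562 and 0.429 in the same order. Both siDNMT1 libraries were below both NC libraries in these introns and in that of Rhov, an order that the rule of choice favours. Polr2h, a subunit shared by the nuclear RNA polymerases, had 0.348, 0.125, 0.419 and 0.350, and Rhov had 0.571, 0.364, 0.417 and 0.309. Higher introns were those of Rabif, Pdpk1, Tceal7 and Bex1. Pdpk1, the kinase that activates AKT (chr17:24073680-24150924), had 0.644, 0.816, 0.659 and 0.846, with both siDNMT1 libraries above both NC libraries. Tceal7 and Bex1 overlap, and their introns carried the values of the Bex1 island given above, so they are 1 measurement. Rabif, a Rab-interacting factor, had 0.286, 0.70, 0 and 0.244.

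Among 5′ UTRs, those of Klhl35, H2-Ke6, Lefty1 and Slc25a44 were lower. Lefty1, a Nodal antagonist of left-right patterning, had 0.643 in NC, 0.391 in siDNMT1, 0.553 in NC OB and 0.466 in siDNMT1 OB. Slc25a44, a mitochondrial carrier of branched-chain amino acids, had 0.647, 0.448, 0.617 and 0.516. Klhl35, a kelch-like gene, had 0.875, 0.444, 0.692 and 0.50, and H2-Ke6 had 0.286, 0, 0.0667 and 0. Higher 5′ UTRs, besides that of Uxt, were those of Hoxc13, a homeobox gene of hair and nail (0.294, 0.605, 0.325 and 0.50), of Gldn, the gliomedin of nodes of Ranvier (0.10, 0.404, 0.250 and 0.455), and of the X-linked Gpm6b, a membrane proteolipid (0.0800, 0.370, 0.284 and 0.512). In Lefty1, Slc25a44, Klhl35 and H2-Ke6 both siDNMT1 libraries were below both NC libraries, and in Uxt, Hoxc13, Gldn and Gpm6b both were above. The rule that chose these 5′ UTRs asked for the same direction in both pairs and so favours that order.

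Among 3′ UTRs, the siDNMT1 library was at 0 in Tmem26 (0.50 in NC, 0.550 in NC OB and 0.462 in siDNMT1 OB) and in Ppfia1, a liprin (0.416, 0.497 and 0.414 in the same order). These falls were thus present in the uninduced siDNMT1 library, with small differences in the OB pair. Anapc13, a subunit of the anaphase-promoting complex, had 0.636 in NC, 0.385 in siDNMT1, 0.70 in NC OB and 0.615 in siDNMT1 OB. Higher 3′ UTRs were those of the olfactory receptor gene Olfr520 (0.227, 0.667, 0.143 and 1.00), of Sap130, a component of the Sin3 corepressor complex (0.418, 0.758, 0.444 and 0.578), of Card19 (0.517, 0.682, 0.440 and 0.537) and of Fbn2, a fibrillin of elastic fibres (0.385, 0.538, 0.410 and 0.531). The 3′ UTR of Gprin1, a gene of neurite outgrowth, had 0.333, 0.118, 0.0625 and 0.

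Repeats, which in mammalian genomes are kept methylated and whose mobile members are held silent in part by that methylation, are listed by element name and the stretch of the element covered, with no genome position. Of 53 families, 17 had at least 100 entries, and 16 of these had a median difference below 0, in 13 with an interval that lay below 0. In 15 of the 17 more entries fell than rose. LINE-1 was the largest family (22104 entries) and had one of the smaller medians, -0.00364, with 979 fallen and 935 risen. The endogenous retroviruses of the ERVK family (5675 entries), which include the intracisternal A particles, had -0.00662, with 241 fallen and 183 risen. Among short interspersed elements the medians were -0.00827 for B4, -0.00797 for B2 and -0.00730 for the Alu (B1) family. MIR elements had 106 fallen and 59 risen, so that 64.2% of changed entries had fallen (56.7% to 71.2%). The DNA transposons of the Tigger family were the exception, with a median of 0.000821 over 237 entries and an interval from -0.00895 to 0.00431 that includes 0.

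The family medians followed the level of the family only in part. The median NC level was lowest in LINE-1, at 0.421, against 0.540 in ERVK, 0.553 in B4 and 0.583 in B2, but satellite entries at 0.590 had a median difference of -0.00258. Single elements with at least 300 entries numbered 29, and all 29 had a median below 0. The most negative was B4A at -0.0103 (968 entries, 53 fallen and 29 risen). Within LINE-1, L1MdA_I, with a median NC level of 0.632, had -0.00714, whereas L1MdF_V, with a level of 0.355, had -0.00188. IAPEz-int, the internal part of intracisternal A particles, had a median of -0.00647 at a level of 0.652, although 8 of its entries fell and 13 rose.

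**Figure D5:**
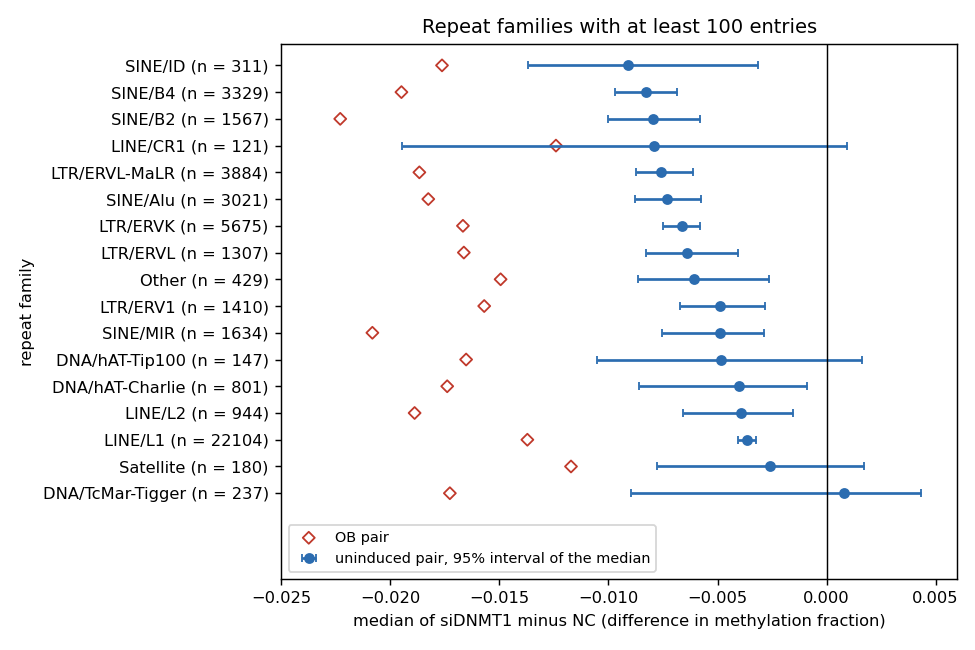
Median difference in methylation fraction (siDNMT1 minus NC) of the 17 repeat families with at least 100 entries, uninduced pair (filled circles, 95% interval of the median over entries) and OB pair (open diamonds). The uninduced medians run from -0.00912 in ID elements to 0.000821 in Tigger elements, and the OB medians are all below 0.

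Last, gene lists were read across the 5 gene classes, where 1.07% of all 77361 entries fell and 0.879% rose, with a median difference of -0.00158. Dnmt1 itself had promoter levels of 0.244 in NC, 0.226 in siDNMT1, 0.197 in NC OB and 0.187 in siDNMT1 OB, and intron levels of 0.453, 0.449, 0.450 and 0.411. Of 91 entries of 28 imprinted genes 1 fell and 2 rose. The Zim1 intron went from 0.182 to 0.0714, the Plagl1 promoter from 0.414 to 0.517, and the 5′ UTR of Peg3, a zinc finger gene expressed from the paternal copy, from 0.340 to 0.514. At Plagl1 the OB libraries were at 0.437 and 0.432, close to NC.

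Germline genes known for promoter methylation in somatic cells had 2 of 64 entries fallen and none risen. These were the intron of Ddx4, a germ cell RNA helicase (0.830 in NC, 0.651 in siDNMT1, 0.829 in NC OB and 0.853 in siDNMT1 OB), and the promoter of Rhox13, a homeobox gene on the X chromosome (0.762, 0.556, 0.673 and 0.671). The Ddx4 promoter differed little, at 0.891 in NC and 0.889 in siDNMT1. None of the 49 entries of 15 listed osteoblast genes and none of the 30 entries of 9 fat genes changed by 0.1. Cartilage genes had 1 of 43 fallen, the intron of Col9a1, a collagen IX chain (0.415 in NC and 0.313 in siDNMT1), and muscle genes 1 of 28, the intron of Myf5, a myogenic regulator (0.392 and 0.285). Over all gene entries 1.07% fell and 0.879% rose, so lists of these sizes hold few changed entries in any case. The counts given therefore do not set these lists apart from other genes. Lists that hold the gene not reported here by name were left out of these counts. The promoter of Grem1, a gene the study named for methylation, went from 0.395 in NC to 0.495 in siDNMT1. It had 0.398 in NC OB and 0.463 in siDNMT1 OB.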

How the data were processed

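Genomic DNA of 4 conditions (control siRNA or DNMT1 siRNA for 48 h, uninduced or after 3 days of OB induction) was measured by bisulfite sequencing, 1 library each. Per the submitters' processing notes, reads were handled with CASAVA, trimmed with Trimmomatic 0.36 and aligned with Bismark 0.16.3, with mm10 as the build. The authors deposited, for each library, the CG methylation level of each region as a fraction, in 8 region classes. The minimum coverage and the weighting of cytosines are not given in the sources used here, and no read numbers were given, so a coverage alternative could not be run.

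Differences were the siDNMT1 fraction minus the NC fraction for regions listed in both libraries, counted as changed at 0.1 or more. Gene IDs were named with GENCODE vM21, and sequences were read from GRCm38: all 14182 islands placed on chromosomes start and end with CG. Wilson intervals and order-statistic intervals of the median (95%) treat regions as independent. With 1 library per condition no test was made. The counting step was run on simulated data with 200 reads behind every level: a fall of 0.3 set in 200 of 20009 introns was recovered in 200. That fall was far above the cut of 0.1 and the real depth is unknown. The run therefore checks the code only and does not show how many real changes are found or falsely called.

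Members and lists were chosen with earlier results of these data known. Genes were named by rule: up to 12 a direction with at least 3 classes past 0.1, filled to 5 from genes with a pair of classes; up to 5 islands and 5 island-shore units a direction; up to 4 introns, 5′ UTRs and 3′ UTRs a direction that moved the same way by 0.05 in the OB pair; repeat families with at least 100 entries; and list genes with changes. 1 of the genes counted is not reported here by name. Single changed members of the gene lists were named after their values were seen. Alternatives were thresholds of 0.05 and 0.2, regions in all 4 libraries, autosomes, centring, a minimum level of 0.2, means, a pair of classes and leaving out exons. Scripts used matplotlib 3.10.9, scipy 1.17.1, pandas 2.3.3 and numpy 2.4.6 under Python 3.11.15.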

Additional observations from a re-analysis of the deposited data

Results flagged for a closer look

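Several results moved in opposite directions in the uninduced and the OB pair. With 1 library per condition, the difference between the pairs was not tested for any of them.

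The median difference of CpG islands was 0.000471 uninduced and -0.00111 in the OB pair, and that of 5′ UTRs was 0.000619 and -0.000690. Among genes with several changed classes, Chrdl1 had the same values in its promoter, 5′ UTR and exons, with a difference of -0.152 uninduced and 0.129 in the OB pair. The Armcx2 intron had 0.246 and -0.111. The CpG island in Hk1 had 0.294 and -0.300. The 5′ UTR of the imprinted gene Peg3 had 0.174 uninduced and -0.145 in the OB pair.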

How the results depend on the processing

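No paired analysis was possible because each condition has 1 library and the labels carry no replicate numbers; for the same reason no library was left out. Of 87 alternative values of the class shares, medians and counts, 51 stayed close to the value given, 32 moved and 4 reversed.

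Restricted to regions at a mean level of at least 0.2, the median difference turned negative in islands (-0.00382) and 5′ UTRs (-0.00329), and was -0.00662 in shores, -0.00603 in promoters, -0.00594 in exons, -0.00675 in introns, -0.00810 in 3′ UTRs and -0.00646 in repeats. As means, the differences were -0.000253 in islands, which reversed, -0.00284 in shores, -0.00290 in promoters, 0.000225 in 5′ UTRs, -0.00396 in exons and -0.00555 in introns. At a threshold of 0.05, the fallen share was 54.7% of changed shores, 58.7% of promoters, 63.6% of introns and 55.8% of repeats. At 0.2 it was 48.5% of promoters, 51.9% of repeats and 49.4% of introns, the last a reversal. Centring the differences on their median over all regions (-0.00171) gave 51.9% for repeats, and the level of at least 0.2 gave 55.4%.

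Genes with at least 3 classes lower or higher numbered 35 and 36 at 0.05, 0 and 2 (Uxt and Pars2) at 0.2, 56 and 45 with 2 classes, and 1 and 2 without exons. Island-shore units numbered 15 lower and 16 higher at 0.05 and 0 and 0 at 0.2, and 0 lower with regions in all 4 libraries. The mean difference over classes of the 15 named genes kept its direction without exons, though it went from -0.437 to -0.75 in Gm48077 and from -0.310 to -0.209 in Ppm1k. The unknown read depth limits every single level.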
